A study of Homo sapiens with 4 samples.

Results

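The genes described are the m6A erasers FTO and ALKBH5 and the IGF2BP readers IGF2BP1, IGF2BP2 and IGF2BP3. They were chosen by gene name and not by a measured value, although earlier results of these data were known. All 5 were found among the 28283 genes of the FPKM table. Each has an FPKM value in both input libraries, and the m6A peaks that carry the same gene name were taken from both peak lists. The cells were A549, a human lung adenocarcinoma line, infected with lentivirus and selected for stable expression of a control construct (shNC, vector PLKO_1) or of a single shRNA construct against YTHDF2 (shY2-2). Both groups were otherwise the same line. Poly(A) RNA of each group was fragmented, and gave an input library and an immunoprecipitated (IP) library made with an antibody against m6A, so that there were 4 libraries. With 1 library of each kind per group, a difference between groups has no replicate check and no p-value was computed for it.

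N6-methyladenosine (m6A) is deposited on mRNA by a methyltransferase complex, mostly in the sequence context DRACH, of which GGAC is the most common form. FTO and ALKBH5 are dioxygenases that remove the methyl group, and for that reason are called erasers. YTHDF2 brings methylated mRNAs to decay, whereas the IGF2BP proteins bind methylated mRNAs through their KH domains and stabilise them. IGF2BP proteins are best known as oncofetal proteins, abundant in embryos and in many tumours.

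FTO (ENSG00000140718) lies at chr16:53701692-54158512 on the + strand of GRCh38. ALKBH5 (ENSG00000091542) lies at chr17:18183078-18209954 on the + strand. IGF2BP1 (ENSG00000159217) lies at chr17:48997412-49055650 on the + strand, IGF2BP2 (ENSG00000073792) at chr3:185643739-185825056 on the - strand, and IGF2BP3 (ENSG00000136231) at chr7:23310209-23470467 on the - strand. These are the ranges in the deposited table. Their reference transcripts in GENCODE release 44 are 11573 nt for FTO, 3159 nt for ALKBH5, 8796 nt for IGF2BP1, 4283 nt for IGF2BP2 and 4274 nt for IGF2BP3.

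The sites below show where GGAC fell inside the peaks on which the comparison of the groups turns. Each is a window of the spliced transcript, 5′ to 3′ on the strand of the gene, written with the letters of the GRCh38 genome (t stands for u in the RNA). GGAC is in capitals, and its A is the base that would carry the methyl group. These windows are not m6A sites called at single-base resolution, since the peaks are wider.
ALKBH5, 3′ UTR, 1424 nt after the stop codon, chr17:18209810-18209830, in peaks of both groups: tcaagtcgGGACtgcataatt
ALKBH5, coding exon 1, chr17:18184421-18184441, in peaks of both groups: tatcaggaGGACtcggacccc
ALKBH5, coding exon 1, chr17:18184526-18184546, in peaks of both groups: ttcagccaGGACgagtgcgcc
IGF2BP3, 3′ UTR, 131 nt after the stop codon, chr7:23312221-23312241 (- strand), in peaks of both groups: gtttctgaGGACcaggcaact
IGF2BP3, coding exon 15, chr7:23312376-23312396 (- strand), in a shY2-2 peak: tgcaaagtGGACcacctcagt
IGF2BP1, coding exon 15, chr17:49049401-49049421, in a shNC peak: atcagaagGGACagagtaacc
IGF2BP1, 3′ UTR, 31 nt after the stop codon, chr17:49049465-49049485, in a shNC peak: cgagtccaGGACaacaacggg
IGF2BP1, 3′ UTR, 97 nt after the stop codon, chr17:49049531-49049551, in a shNC peak: ggaatccgGGACacctgggcc
FTO, coding exon 3, chr16:53826291-53826311, in a shNC peak: cctacaacGGACaagatgaag
FTO, coding exon 3, chr16:53826305-53826325, in a shNC peak: gatgaagtGGACattaagagc
FTO, coding exon 3, chr16:53826443-53826463, in a shNC peak: aatctggtGGACaggtcagcg
The sites of ALKBH5 and of the IGF2BP3 3′ UTR were inside peaks of both groups. The FTO and IGF2BP1 sites shown come from shNC peaks that no shY2-2 peak met at these sites. The choice of these peaks sets that pattern, since a shY2-2 peak on alternative exons of FTO holds 4 other GGAC.

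The targeted gene and the cell identity were checked first. The FPKM of YTHDF2 was 3.56 in shNC and 1.02 in shY2-2, so the targeted mRNA was lower in the library labelled as the knockdown. All 10 epithelial and A549 markers reached an FPKM of 1 in shNC and in shY2-2. Their summed FPKM was 6077 in shNC and 4862 in shY2-2, and 8 of 10 were lower in shY2-2, with KRT19 the lowest at a log2 ratio of -0.95 and AKR1B10 the highest at 0.18. None of these markers was at 0. The 8 leukocyte, endothelial and fibroblast markers summed to 13.9 in shNC and 11.9 in shY2-2, most of it CD68. CD3E was listed at 0 in shY2-2, and COL1A1 was the only marker of this kind besides CD68 to reach an FPKM of 1. The alveolar marker SFTPC had an FPKM of 0.0303 in shNC and 0.0670 in shY2-2. The part of the epithelial difference in the results below was not tested. In bulk RNA, a change in the mix of cells and a change in RNA per cell cannot be told apart.

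Of the 5 genes, 4 had a higher FPKM in shY2-2 than in shNC and 1, IGF2BP3, had a lower one. FPKM scales fragments to exon length and to the mapped fragments of the library, so levels of different genes within a library can be compared. A pseudocount of 1 was added to each FPKM before the log2 ratio of shY2-2 over shNC was taken, so that the ratio of a weakly expressed gene is understated. A gene was counted as changed past a log2 ratio of 1 in size. All 5 genes were among the 12268 that reached an FPKM of 1 in either input library. FTO passed only through its shY2-2 value. A higher FPKM in shY2-2 was found for 50.3% of the 12268 genes, and for 63.4% of the 1868 with a mean FPKM of 20 and over. None of the 5 had a log2 ratio above 1, as 0.986% of the 12268 genes did, and none had one below -1, as 2.14% did.

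ALKBH5 was the most abundant of the 5 mRNAs in both libraries, with an FPKM of 31.8 in shNC and 42.2 in shY2-2. Its log2 ratio of 0.40 stood at percentile 83.1 among the 1868 genes with a mean FPKM of 20 and over. FTO was the least abundant in both libraries, with an FPKM of 0.948 in shNC and 2.37 in shY2-2. Its log2 ratio was 0.79 with the pseudocount of 1, and 1.32 without a pseudocount, a level 150.3% higher. Among the 5544 genes with a mean FPKM of 1 to 5, the ratio of FTO stood at percentile 97.9. The deposited FPKM values keep no fragment counts, so the precision of a level as low as that of FTO is unknown. Within a library, the level of ALKBH5 was 33.5 times that of FTO in shNC and 17.8 times in shY2-2, and FTO made up 2.90% and 5.33% of the summed FPKM of both erasers.

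IGF2BP1 was the most abundant of the IGF2BP readers. Its FPKM was 13.2 in shNC and 22.4 in shY2-2, a log2 ratio of 0.72 that stood at percentile 97.3 among the 4342 genes with a mean FPKM of 5 to 20. IGF2BP2 had an FPKM of 5.86 in shNC and 7.59 in shY2-2, which gave a log2 ratio of 0.32 and percentile 80.1 in the same class. IGF2BP3 had an FPKM of 6.16 in shNC and 4.32 in shY2-2, which gave -0.43 and percentile 14.2 in that class. IGF2BP3 was therefore listed slightly above IGF2BP2 in shNC and below it in shY2-2. The spread of either level between cultures is unknown, and these neighbours cannot be ordered beyond it. IGF2BP3 shares 1521 nt of exon with MALSU1 on the opposite strand, whose FPKM was 5.11 in shNC and 5.74 in shY2-2. The use of strand in counting is not given. The part of MALSU1 reads in the level of IGF2BP3, and in the family shares below, is therefore unknown.

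The make-up of the IGF2BP family differed between the libraries as well as its sum. The summed FPKM of the family was 25.2 in shNC and 34.3 in shY2-2. IGF2BP1 made up 52.3% of it in shNC and 65.3% in shY2-2, and IGF2BP3 made up 24.5% and 12.6%. The share of IGF2BP2 was 23.3% in shNC and 22.1% in shY2-2. The level of IGF2BP1 was 2.14 times that of IGF2BP3 in shNC and 5.19 times in shY2-2. The coding sequences of the IGF2BP paralogs are 70.7% to 71.6% identical, and their reference transcripts share 0 runs of 31 nt.

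**Figure D1:**
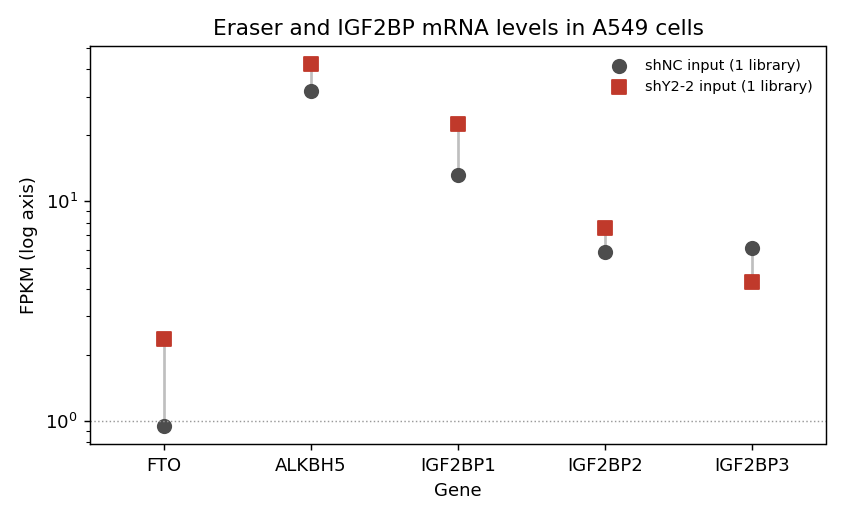
FPKM of each gene (log axis) in shNC input (circles) and shY2-2 input (squares), with 1 library per point and no error bars. The levels run from FTO at 0.948 in shNC to ALKBH5 at 42.2 in shY2-2, and IGF2BP3 is the only gene with the square below the circle.

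Set against all genes, the ratios of FTO and IGF2BP1 were near the upper edge of the distribution. The log2 ratios of the 12268 genes had a median of 0.00, and 95% of them lay between -0.96 and 0.74. FTO, at 0.79, was just above that range, and IGF2BP1, at 0.72, was just inside it. FTO was among the 12268 genes only through its shY2-2 value, so its place there is not independent of its ratio. ALKBH5 was above the 84th percentile of all genes, which is 0.36, IGF2BP2 was below it, and IGF2BP3 was just below the 16th percentile, which is -0.41. These percentiles describe the genes of a single pair of libraries and are not an error of the measurement.

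**Figure D2:**
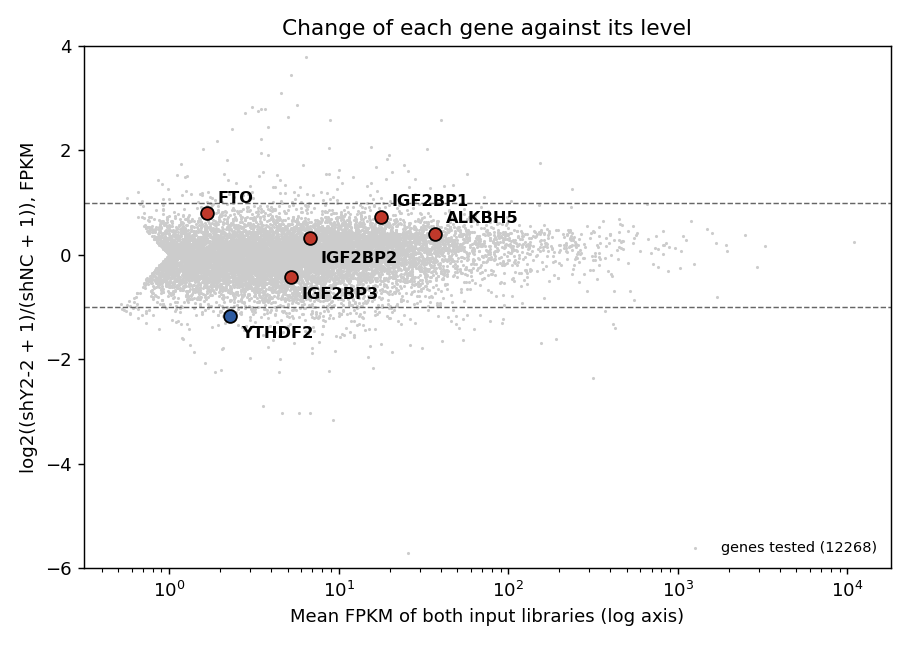
Log2 ratio of FPKM, shY2-2 over shNC with a pseudocount of 1, against the mean FPKM of both input libraries (log axis) for the 12268 genes (grey), the 5 erasers and IGF2BP readers (red) and the targeted gene YTHDF2 (blue). Dashed lines mark log2 ratios of 1 and -1. YTHDF2, at -1.18, is past the lower line, and the 5 red points are between the lines.

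For each of the 5, the genes with the closest pair of levels over the 2 input libraries were found by distance in log2(FPKM + 1). For FTO these were PCDHGC3 (0.968 in shNC, 2.36 in shY2-2) and EMC3-AS1 (0.870 and 2.35). For ALKBH5 they were NENF (31.5 and 42.1) and C5orf15 (32.2 and 41.8). For IGF2BP1 they were AKIRIN2 (13.1 and 22.8) and FGFR1 (13.0 and 23.2), for IGF2BP2 NANP (5.87 and 7.58) and R3HDM2 (5.86 and 7.57), and for IGF2BP3 NFKB1 (6.17 and 4.37) and SETD2 (6.19 and 4.38). With 2 libraries, this likeness is a likeness of 2 values only.

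The other genes of the m6A pathway were compared by role. Over all genes tested, 50.3% had a higher FPKM in shY2-2. Of 11 genes of the methyltransferases and their cofactors, 4 had a higher and 7 a lower FPKM in shY2-2, and none was past a log2 ratio of 1 in size. Their log2 ratios ran from -0.44 for ZC3H13, a subunit of the regulatory complex, to 0.56 for RBM15B, an RNA-binding subunit that guides the complex, with a median of -0.13 beside 0.00 over all genes tested. Of the 11 other readers, 4 were higher and 7 were lower, with a median of -0.12. YTHDF2 was the only gene of these lists past the threshold, and YTHDF3, its close paralog, had the highest ratio of the other readers at 0.36. The catalytic subunit METTL3 had an FPKM of 9.75 in shNC and 11.3 in shY2-2. METTL3 was chosen after its values were seen.

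The other AlkB family genes, to which both erasers are related, included 5 of 7 with a higher FPKM in shY2-2, beside 50.3% of all genes tested. The median log2 ratio of the 7 was 0.43. ALKBH6 had the highest ratio, 0.56, and ALKBH8, a tRNA-modifying member, the lowest, -0.23. None was past the threshold. With 1 library per group, the median was not tested.

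Genes listed from general knowledge as bound by IGF2BP proteins or demethylated by the erasers were compared as well. They are again set beside 50.3% of all genes tested with a higher FPKM in shY2-2. Of 25 RNAs listed as IGF2BP targets, among them the noncoding RNA H19, 24 were in the table and 22 were tested. None was past a log2 ratio of 1 in size, 13 were higher and 9 lower in shY2-2, and their median was 0.04. E2F1, a transcription factor of the cell cycle, had the highest ratio with an FPKM of 18.5 in shNC and 32.6 in shY2-2 (0.79). CDK6, a cell cycle kinase, had the lowest with 7.49 and 4.53 (-0.62). MYC, the best known target of IGF2BP1, had an FPKM of 15.0 in shNC and 15.7 in shY2-2, and was named for that role after its values were seen. Of the 11 listed targets of FTO or ALKBH5, 8 were tested, 5 were higher and 3 lower, with a median of 0.11. Their log2 ratios ran from -0.40 for YAP1, a transcriptional co-activator, to 0.56 for CEBPA, a transcription factor. The protein partners of the IGF2BP readers, 7 genes with MATR3 listed under 2 identifiers, ran from -0.27 for HNRNPU to 0.29 for ELAVL1, which stabilises mRNAs.

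**Figure D3:**
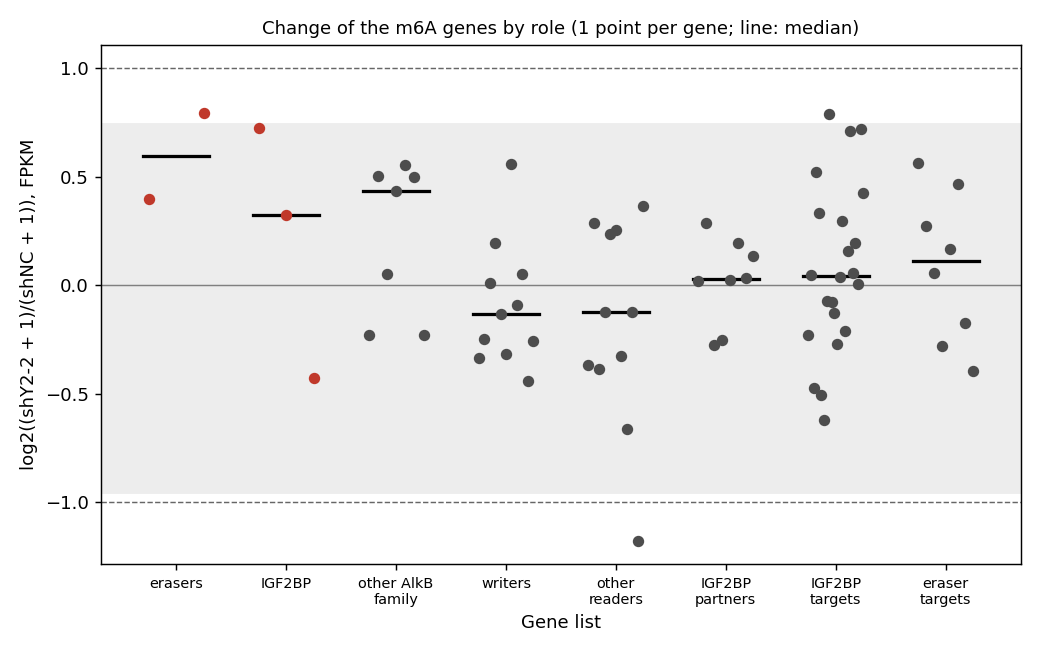
Log2 ratio of FPKM, shY2-2 over shNC, for each tested gene of 8 lists, with the median of each list as a line. The grey band holds 95% of all 12268 genes, from -0.96 to 0.74, and dashed lines mark 1 and -1. Only YTHDF2, among the other readers, is past a dashed line, and the erasers and IGF2BP genes (red) run from -0.43 to 0.79.

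m6A peaks were compared next. A peak is a stretch of transcript with more IP than input fragments, and its fold enrichment and false discovery rate (FDR) are the values of the authors' peak caller, from 1 IP and 1 input library per group. Peaks named for 4 of the 5 genes were in each list, where 81.3% of tested genes had a peak in shNC and 78.5% had one in shY2-2. The 4 genes with peaks were the same, and IGF2BP2 had none in either list, like 12.9% of tested genes. In all, 17 of the 31057 distinct peaks of the shNC list and 9 of the 27344 of the shY2-2 list carried these names. Peaks were listed up to an unadjusted p-value of 0.049, and 56.4% of all shNC peaks and 52.1% of all shY2-2 peaks had an FDR of at most 0.05, so a peak gained or lost between the lists can be one near that limit. FTO, ALKBH5 and IGF2BP1 had fewer peaks in shY2-2, as 44.1% of the 10682 tested genes with a peak did, and IGF2BP3 had more, as 26.9% did. An overlap of at least 1 nt with a peak of the other list was found for 6 of the 17 peaks in shNC and 6 of the 9 in shY2-2. Over all peaks, 55.9% of the shNC list and 65.4% of the shY2-2 list met one of the other list.

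ALKBH5 had 5 peaks in shNC and 3 in shY2-2. The last 210 nt of its transcript, chr17:18209745-18209954, formed the same peak in both lists. Its fold enrichment was 5.34 in shNC (FDR 4.90e-05) and 3.33 in shY2-2 (FDR 2.45e-10). That 3′ UTR stretch holds the GGAC shown first above. In coding exon 1, a shNC peak of 210 nt (fold enrichment 1.72, FDR 9.12e-06) lay wholly inside a shY2-2 peak of 299 nt (1.40, FDR 0.00107). The shared part holds 3 GGAC, of which 2 are shown above, and the coding sequence of ALKBH5 has 10.1 GGAC per kb, at percentile 95.1 of 10272 coding sequences. The remaining shNC peaks on its own transcript were in the 3′ UTR 217 to 455 nt after the stop codon (1.23, FDR 0.0214) and in an exon of an alternative transcript (3.82, FDR 0.000708), and no shY2-2 peak met either.

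The remaining peak of ALKBH5 in each list began with 4 nt outside its exons. Both lay wholly on exons of ENSG00000266677, a lncRNA on the opposite strand that shares 357 nt of exon with ALKBH5. They had a fold enrichment of 1.85 in shNC (FDR 0.0151) and 1.49 in shY2-2 (FDR 0.0550). The lncRNA had an FPKM of 0.0465 in shNC and 0.0208 in shY2-2. The peak lists give the strand of the named gene and not of the reads, so reads of the genes on opposite strands cannot be told apart there, and this holds for the exon 1 peaks as well.

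FTO had 5 peaks in shNC and 2 in shY2-2, while its FPKM was higher in shY2-2. The highest fold enrichment in shNC, 2.83, belonged to a peak of 421 nt in coding exons 3 and 4, chr16:53826106-53844189 (FDR 1.07e-07), 732 to 1152 nt before the stop codon. It holds 3 GGAC, shown above. Among shNC peaks within 10% of this length, 76.5% held at least 1. No shY2-2 peak met it. A second shNC peak with an FDR of at most 0.05 (2.29, FDR 0.0100) covered exon 8 and parts of alternative exons. It shared 61 nt, all in an alternative exon, with a shY2-2 peak of 930 nt (2.42, FDR 0.121) that lies outside the reference transcript and holds 4 GGAC, of which 1 is preceded by T. The other 3 shNC peaks had fold enrichments of 2.29, 1.53 and 1.60 and FDRs of 0.177, 0.236 and 0.0813. Of the 10026 nt of the 3′ UTR in the FTO reference transcript, 4.20% lay in a shNC peak and 0% in a shY2-2 peak. That shNC peak is the one with an FDR of 0.0813. In the authors' annotation, the shY2-2 peak of 930 nt and the shNC peak that it met are also in the 3′ UTR.

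The other shY2-2 peak named for FTO had 0 of its 300 nt on FTO exons. It lay at chr16:53696146-53703578, just upstream of the reference transcript of FTO and partly inside the deposited range of the gene. Of its length, 261 nt were on exons of RPGRIP1L, a ciliary gene on the opposite strand (fold enrichment 1.95, FDR 0.00117). RPGRIP1L had an FPKM of 2.64 in shNC and 1.61 in shY2-2. FTO itself thus had 1 peak on its exons in shY2-2, with an FDR above 0.05.

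IGF2BP1 had 5 peaks in shNC and 1 in shY2-2, while its FPKM was higher in shY2-2. The first shNC peak, of 451 nt, spanned the stop codon from 236 nt before it to 214 nt after it (fold enrichment 1.32, FDR 0.0195) and holds 4 GGAC, of which 3 are shown above. The other 4 were spread over the 3′ UTR between 1862 and 4708 nt after the stop codon. Their fold enrichments were 2.02 (FDR 0.136), 1.92 (FDR 0.00631), 2.01 (FDR 0.00832) and 2.09 (FDR 0.00324). The single shY2-2 peak covered 121 nt, chr17:49053613-49053733, inside the last of these, which covered 600 nt. It had a fold enrichment of 1.30 (FDR 0.279) and no GGAC. Of the 6701 nt of the 3′ UTR, 25.1% lay in shNC peaks and 1.81% in the shY2-2 peak. Among all 707 tested genes with 5 shNC peaks, 76 (10.7%) had at most 1 shY2-2 peak, 212 (30.0%) had at most 2, and the median was 3. The lncRNA ENSG00000250838 on the opposite strand shares 37 nt of exon with IGF2BP1 and had an FPKM of 3.63 and 3.06.

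IGF2BP3 had 2 peaks in shNC and 3 in shY2-2, while its FPKM was lower in shY2-2. A peak of 300 nt at the stop codon was in both lists, at chr7:23312067-23312366 in shNC and 30 nt further upstream in the transcript in shY2-2, with 270 nt shared. Its fold enrichment was 1.59 in shNC (FDR 0.00912) and 1.70 in shY2-2 (FDR 7.41e-05). The shared part holds the GGAC 131 nt after the stop codon, and the shY2-2 peak reached a second GGAC in the coding sequence, preceded by T. The other shNC peak had the highest fold enrichment of all, 8.39, with an FDR of 0.0977, and only 17 of its 210 nt lay in the reference transcript. The remaining shY2-2 peaks, 150 and 151 nt long, were near duplicates of each other near the end of the 3′ UTR (1.54, FDR 0.278 and 0.282). They lay on exon sequence that IGF2BP3 shares with MALSU1, a mitochondrial ribosome assembly gene on the opposite strand, whose FPKM was 5.11 in shNC and 5.74 in shY2-2. The shared exon sequence amounts to 1521 nt. Without these, IGF2BP3 had 1 peak in shY2-2.

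IGF2BP2 had no peak under its own name, and no peak under another name lay on its exons in either list. Of the 4342 genes with a mean FPKM of 5 to 20, 247 (5.69%) had no peak in either list. The reference transcript of IGF2BP2 has 15 GGAC, 10 in the coding sequence and 5 in the 3′ UTR. That is 3.50 per kb, beside a median of 3.67 over 10272 transcripts of tested coding genes. IGF2BP3, with peaks in both lists, has 3.04 per kb, FTO 2.51, IGF2BP1 4.55 and ALKBH5 6.96.

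**Figure D4:**
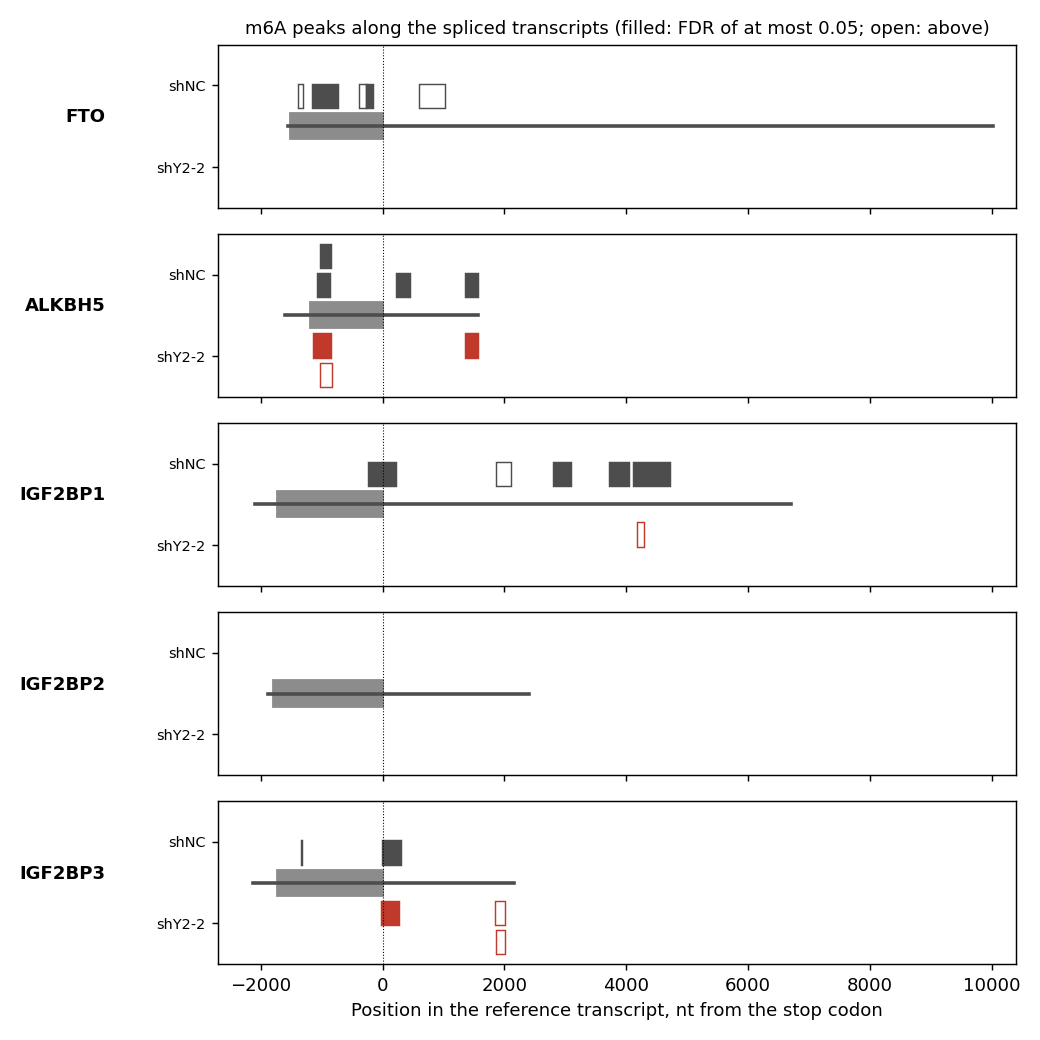
Position of the m6A peaks of each gene in its reference transcript, in nt from the stop codon, with shNC peaks above (grey) and shY2-2 peaks below (red). The thick bar is the coding sequence and the line the whole transcript, filled boxes have an FDR of at most 0.05, open boxes a higher one, and overlapping peaks are stacked. The narrow IGF2BP3 box before the stop codon is open (FDR 0.0977), and 1 shNC and 2 shY2-2 peaks lie outside the reference transcripts and are not drawn. IGF2BP1 has 5 boxes above and 1 below, and IGF2BP2 has none.

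The peaks of these genes had a lower median fold enrichment than the lists they came from. The median fold enrichment was 2.01 over the 17 shNC peaks and 1.54 over the 9 shY2-2 peaks, beside 2.17 and 2.26 over all peaks of each list. The 9 count the near-duplicate IGF2BP3-named peaks on MALSU1 exon sequence separately, and both have that median value of 1.54. They also include the FTO-named peak that lies off FTO exons. An FDR of at most 0.05 was reached by 12 of 17 and 4 of 9, beside the 56.4% and 52.1% of all peaks. A fold enrichment of at least 2 was reached by 9 of 17 and 2 of 9, beside 57.7% and 59.4% of all peaks. Of the 4 shY2-2 peaks with an FDR of at most 0.05, 2 belonged to ALKBH5, 1 to IGF2BP3 and 1 was the FTO-named peak on RPGRIP1L.

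**Figure D5:**
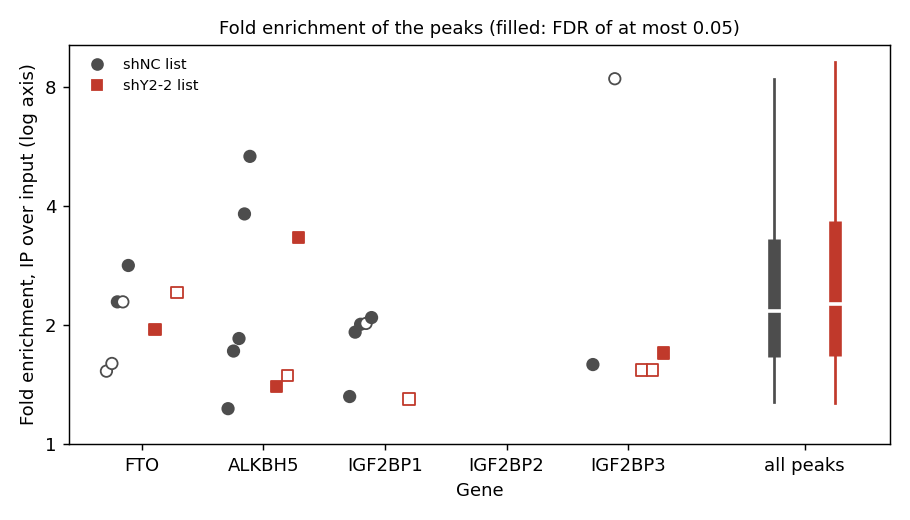
Fold enrichment (IP over input, log axis) of each peak of the 5 genes from shNC (circles) and shY2-2 (squares), with filled symbols for an FDR of at most 0.05. The bars on the right give all peaks of each list, with the 5th to 95th percentile as a line, the 25th to 75th as a box and the median in white (2.17 and 2.26). The highest shY2-2 value is 3.33 for ALKBH5, and the highest shNC value is the open circle of IGF2BP3 at 8.39.

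Most peaks lay in the 3′ UTR by the authors' annotation, 11 of 17 in shNC and 6 of 9 in shY2-2, beside 59.1% and 59.5% of all peaks. In the reference transcripts, 9 of 17 and 5 of 9 overlapped a 3′ UTR. GGAC, searched on the strand of the named gene, was in 11 of 17 peaks in shNC and 6 of 9 in shY2-2, beside 60.9% and 60.6% of all peaks. TGGAC, which contains GGAC and in which the binding motif of IGF2BP proteins has been described, was in 2 of 17 and 3 of 9, beside 30.2% and 30.0%. The FTO-named peak on RPGRIP1L is 1 of these 3. GGAC occurred 4.40 times per kb of the shNC peaks and 5.61 times per kb of the shY2-2 peaks, where all peaks had 4.10 and 3.95 per kb. Overlapping peaks of a gene count their shared sites more than once in these densities.

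Peaks were also counted over the other lists. The 11 methyltransferase genes had 39 peaks in shNC and 37 in shY2-2, the 11 other readers 36 and 29, and the 7 other AlkB genes 15 and 17. The 22 tested IGF2BP targets had 51 and 52 peaks, with MYC at 1 in each list. The 8 tested eraser targets had 27 and 20. The erasers had 10 and 5 and the IGF2BP readers 7 and 4, beside 31057 and 27344 in the whole lists. The 5 eraser peaks in shY2-2 include the FTO-named peak off FTO exons. The 4 IGF2BP peaks in shY2-2 include the near duplicates on MALSU1 exon sequence. Without replicates, none of these differences was tested.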

How the data were processed

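A549 cells with shNC or shY2-2 gave 1 input and 1 IP library each. Reads were mapped by the authors with HISAT2 to GRCh38, and the authors computed the deposited FPKM values per gene from the input libraries with StringTie. The authors called peaks with exomePeak, IP against input per group, and annotated them with ChIPseeker. Fold enrichment (IP over input, a ratio), p-value, and log10 scores of p-value and FDR are the authors' deposited values. The deposited lists hold more peaks than the text of the paper counts, by a rule not given in the sources used here. fastp and HOMER are also named in the submitters' processing notes. Tool versions, annotation release and the use of strand in counting are not given in the sources used here, although the libraries mark strand with dUTP.

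Log2 ratios were computed with a pseudocount of 1 over genes that reached an FPKM of 1 in either input library, with no test, since each group has 1 library and FPKM values are not counts. The depth behind FPKM values and peaks is unknown, so no interval was given. Peaks at the same position were counted once, and peaks were compared by overlap of exonic blocks on the strand of the named gene. Locations and sequences came from canonical transcripts of GENCODE release 44 on GRCh38. The genes named are the 5 erasers and IGF2BP readers, YTHDF2, the genes with the highest and lowest ratio and every called gene of each list, the 2 nearest genes in level, and overlapping genes. The members, the lists and the rule were chosen with earlier results of these data known. Of the 25 IGF2BP and 11 eraser targets, 1 and 2 were not in the table. NKX2-1 and SFTPB, planned as lung markers beside SFTPC, were not found by symbol in the table. Alternatives were another pseudocount, FPKM filter, threshold or scaling, and stricter filters on peaks, overlaps, locations and motifs. The code was run on simulated data with large planted changes, a check of the code that does not bear on calls in these data. Python 3.11.15, NumPy 2.4.6, pandas 2.3.3, pysam 0.24.0, Biopython and matplotlib 3.10.9 were used.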

Additional observations from a re-analysis of the deposited data

How the results depend on the processing

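Of 129 values recomputed under alternatives, 84 stayed within the limits set and 45 moved. For ratios the limit was a shift under 0.38 on the log2 scale, 0.5 of the range of all genes between percentiles 16 and 84. For counts it was a count within 1.5 times. No direction of a ratio of the 5 genes turned, an outcome that the alternatives fixed in advance. Another pseudocount cannot turn a sign. Subtracting the median took 0.01 from each ratio, and the scalings shifted levels by 0.05 and -0.07 on the log2 scale. The smallest of the 5 ratios in size was 0.32. The 84 also include values that could not move, such as the filtered peak counts of IGF2BP2, which had no peak. The ratio of FTO was 1.24 with a pseudocount of 0.1, 1.32 without one and 1.08 after rescaling to TPM, so whether FTO passed 1 depended on these settings. Past a threshold of 1, a pseudocount of 0.1 gave 917 genes of all tested (315 higher, 602 lower) and 1 of the 5 (FTO, higher). A 1.5-fold threshold gave 1754 (660 higher, 1094 lower) and 2 of the 5 (FTO and IGF2BP1, both higher). At 1.5-fold, 2 of 22 m6A pathway genes (YTHDC2 and YTHDF2, both lower) and 4 of 22 IGF2BP targets were called, beside 1754 of all 12268 tested. Of the 4 targets, 3 were higher and 1 was lower, beside 660 higher and 1094 lower of all 12268. With an FPKM of at least 5, YTHDF2 was no longer tested and 0 pathway genes were called.

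Peak filters, given for shNC and then shY2-2, moved most counts because few peaks remained. A fold enrichment of at least 2 left 3 and 1 peaks for FTO, 2 and 1 for ALKBH5, 3 and 0 for IGF2BP1 and 1 and 0 for IGF2BP3. A fold enrichment of at least 4 left 0 and 0, 1 and 0, 0 and 0, and 1 and 0 in the same order. Most peaks of the whole lists fell below 4 as well, since the 75th percentile of fold enrichment was 3.31 in shNC and 3.66 in shY2-2. An FDR of at most 0.05 left 2 and 1 for FTO, 5 and 2 for ALKBH5, 4 and 0 for IGF2BP1 and 1 and 1 for IGF2BP3, and the 1 shY2-2 peak of FTO was the peak on RPGRIP1L with 0 nt on FTO exons. An FDR of at most 0.001 left 1 and 0, 3 and 1, 0 and 0, and 0 and 1. An overlap of at least 0.5 of the shorter peak left 0 shared FTO peaks, and of each peak 0 for FTO and 0 for IGF2BP1. The shares of all peaks that pass an FDR of 0.001 or these overlaps were not computed, so these losses cannot be called particular to these genes. TGGAC in place of GGAC was in 2 and 3 peaks. Without peaks with a block off the exons of the gene or on MALSU1, an alternative chosen after seeing the data, FTO and IGF2BP3 had 1 shY2-2 peak each. No paired analysis was possible because each group has 1 library of each kind.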
